A study of Saccharomyces cerevisiae with 4 samples.

Results

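The genes described here are the nuclear genes for subunits of the yeast mitochondrial respiratory chain and ATP synthase. They were taken from a fixed list of 35 open reading frames (ORFs), of 5441 ORFs in the deposited tables. The rule is membership of a complex and uses no measured value, although the list was drawn up with earlier results of these data known. The list holds 4 subunits of complex II, 9 of complex III, 8 of complex IV and 11 of ATP synthase. Cytochrome c (CYC1), the internal NADH dehydrogenase NDI1 and the ATP synthase inhibitor INH1 complete it. All 35 were in the tables and all 35 passed the filter on low counts.

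Values come from ribosome profiling of Saccharomyces cerevisiae strain Y7092, in which fragments of mRNA covered by ribosomes were sequenced. There were 4 libraries and 4 groups, with 1 library each. Wild-type cells and cells with the retromer gene VPS35 replaced (vps35::natMX) carried pAG416GAL-ccdB as the control or pAG416GAL-TIF4631, which encodes the initiation factor eIF4G1 under a galactose promoter. All cultures were grown in synthetic defined medium and induced for 2 h. The design asks what loss of VPS35 and an excess of TIF4631 do, alone and together.

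The targeted genes were checked first. VPS35 had 2187 and 1974 counts in the wild-type libraries and 9 and 10 in the deletion libraries. TIF4631 stood at 455 scaled CPM (counts scaled to a common library size) in the wild-type control, 435 in the deletion control and 6216 in the deletion library with its plasmid. It stood at 403 in the wild-type library labelled TIF4631, which therefore goes against its label and is named that way throughout. The 6 a-cell genes examined had 0 to 92 counts and all missed the filter, against 4912 to 7079 for STE3, the receptor gene of alpha cells, the mating type of Y7092. LEU2 and MET17, which are deleted in that strain, had 0 counts in each library. Summed counts ranged from 11240681 to 18067205. No group has a replicate, so spread between cultures is unknown, intervals below are 95% intervals for counting error alone, and each difference is between libraries and not between conditions. Footprints per ORF hold mRNA level and translation together.

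The respiratory chain passes electrons from NADH and succinate to oxygen across the inner mitochondrial membrane, and ATP synthase uses the resulting proton gradient to make ATP. Budding yeast has no proton-pumping complex I. A single-polypeptide enzyme, NDI1, feeds matrix NADH electrons to ubiquinone instead, complex II feeds those of succinate, complex III passes them to cytochrome c, and complex IV to oxygen. Complexes III and IV and ATP synthase are mosaics of nuclear and mitochondrial gene products, whereas complex II is wholly nuclear and is also the succinate dehydrogenase of the tricarboxylic acid cycle. Many of the nuclear genes are known targets of the HAP complex, an activator that binds CCAAT boxes.

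The letters CCAAT, searched on both strands from 250 bases before to 50 bases after the start codon, were found for 30 of 35 members (85.7%) and for 2601 of 6002 nuclear protein-coding genes (43.3%). The longer form ACCAATNA, which contains CCAAT, was found for 13 members (37.1%) and for 5.75% of all genes. Within the 250 bases before the start codon the members held 40 matches of CCAAT, at a median distance of 181 bases, and 36 of these lay at least 100 bases away. COR1, CYT1, COX4, ATP1 and CYC1 had no match there. A match is a run of letters and not a shown binding site. The fragments below are shown because they belong to genes at both ends of the range of differences described later. Each is 25 bases on the coding strand of the gene, 5′ to 3′, with 1 box in capitals (CCAAT, or ATTGG where it lies on the other strand). Where a gene had 2 matches, the capitals mark the one nearest to the start codon among those at least 100 bases before it.
SDH2: tcgcattggcCCAATtagctccggt
SDH3: gtccattctgATTGGctgcggtagc
SDH4: aagcattgagCCAATcgctgctgtt
QCR6: taagggcagtATTGGttggcgctta
NDI1: ttcattcggaCCAATcatatgaagg
COX7: gcagtacttgATTGGctacgccgcg
ATP17: acggagagaaCCAATcatatcgaag
These are reference sequences of the R64 assembly, the same as sacCer3, at chrXII:54071-54095 (minus strand), chrXI:179510-179534 (plus), chrIV:817707-817731 (plus), chrVI:224861-224885 (minus), chrXIII:30020-30044 (minus), chrXIII:779275-779299 (minus) and chrIV:1228372-1228396 (plus). The boxes lay 150, 143, 229, 102, 223, 158 and 225 bases before the start codon, in the same order. SDH2, SDH3, QCR6 and NDI1 each had another match, at 156, 25, 239 and 81 bases, and that of SDH2 is the attgg left in lower case in its fragment. SDH1 had its one match 31 bases before the start codon. CYC1 and COX4, also at the ends of the range, had no match, so no fragment is shown for them. As 30 of 35 members held CCAAT, genes with it were likely to stand at both ends. Any link between the boxes and the differences was not tested.

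Footprint densities of the members were high in every library. Density was taken as the deposited RPKM, reads per ORF length and library size, which allows genes of different length to be compared. The median member stood at 1332 RPKM in the wild-type control, 1379 in the wild-type library labelled TIF4631, 1308 in the deletion control and 1138 in the deletion library with TIF4631. The median of all ORFs was 35.9 to 38.3 RPKM. All 35 members lay among the 544 densest ORFs in 3 libraries, and 34 in the deletion library with TIF4631, where NDI1 ranked 614. Together they took 3.08%, 3.12%, 2.96% and 2.59% of all counts, in the order wild-type control, wild type labelled TIF4631, deletion control and deletion with TIF4631. That order of libraries is used for every series of 4 values below.

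**Figure D1:**
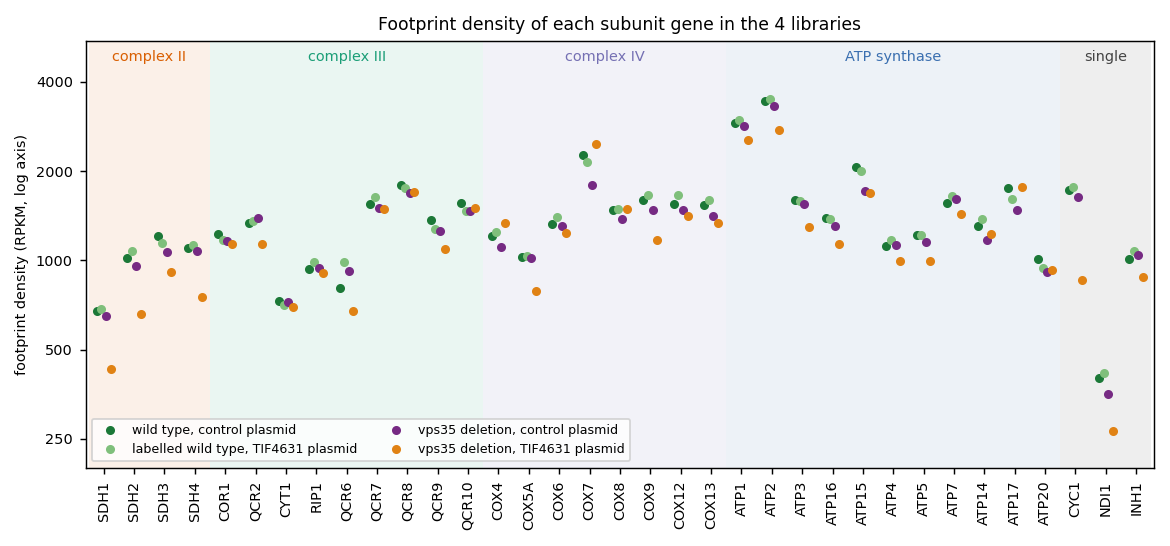
Deposited footprint density (RPKM, log axis) of each of the 35 genes, grouped by complex, with 1 point per library and no error bars because each group is 1 library. ATP1 and ATP2 stand above and NDI1 below. The orange points of the deletion library with TIF4631 are lowest for most genes, among them all 4 SDH genes, CYC1 and NDI1, but not for COX4, COX7 or ATP17.

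Densities within a complex were compared as the ratio of the highest to the lowest subunit. In complex IV of the wild-type control they ran from 1024 RPKM for COX5A, an isoform subunit, to 2265 for the small subunit COX7, a ratio of 2.21. In complex III they ran from 727 for cytochrome c1 (CYT1) to 1799 for QCR8, a ratio of 2.47, and in complex II from 674 for the flavoprotein SDH1 to 1211 for the membrane anchor SDH3, a ratio of 1.8. Over the 4 libraries this ratio was 1.65 to 2.12 in complex II, 2.34 to 2.51 in complex III and 1.76 to 3.11 in complex IV. It was lowest for complex IV in the deletion control and highest in the deletion library with TIF4631. The core pair of complex III, COR1 and QCR2, stood at 1230 and 1332 RPKM. The order within a complex carries no error between cultures, so it describes these libraries. Shorter ORFs had higher densities: Spearman's rho between coding length and RPKM in the wild-type control was -0.37 over the 35 members and -0.36 over 4996 ORFs. These rho values are descriptions, over genes of 1 library.

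In the wild-type control ATP synthase showed the widest range of the complexes as deposited, from 1011 to 3447 RPKM, a ratio of 3.41. In the deletion library with TIF4631 its ratio was 2.96, against 3.11 for complex IV. Its catalytic head, F1, is known to carry 3 copies each of the alpha and beta subunits. ATP2 (beta) stood at 3447, 3500, 3319 and 2761 RPKM and ATP1 (alpha) at 2901, 2967, 2838 and 2546. ATP3 (gamma), the shaft of the rotor, stood at 1593, 1589, 1550 and 1300. The ratio of ATP2 to ATP3 was 2.16, 2.2, 2.14 and 2.12, and that of ATP1 to ATP3 was 1.82, 1.87, 1.83 and 1.96. Both ratios lay under the 3 of the assembled enzyme in each library, but this depends on ATP3 as the reference. Per copy, ATP2 stood at 1149 RPKM in the wild-type control. That was above ATP20 at 1011 and ATP4 at 1122, so against those its ratio was over 3, and below the other single-copy subunits. Divided by copies, the 11 subunits of the wild-type control ran from 967 RPKM for ATP1 to 2067 for ATP15 (epsilon), with a coefficient of variation of 24.6%. INH1, which binds F1 and blocks ATP hydrolysis, stood at 0.636, 0.677, 0.675 and 0.676 of the density of ATP3.

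**Figure D2:**
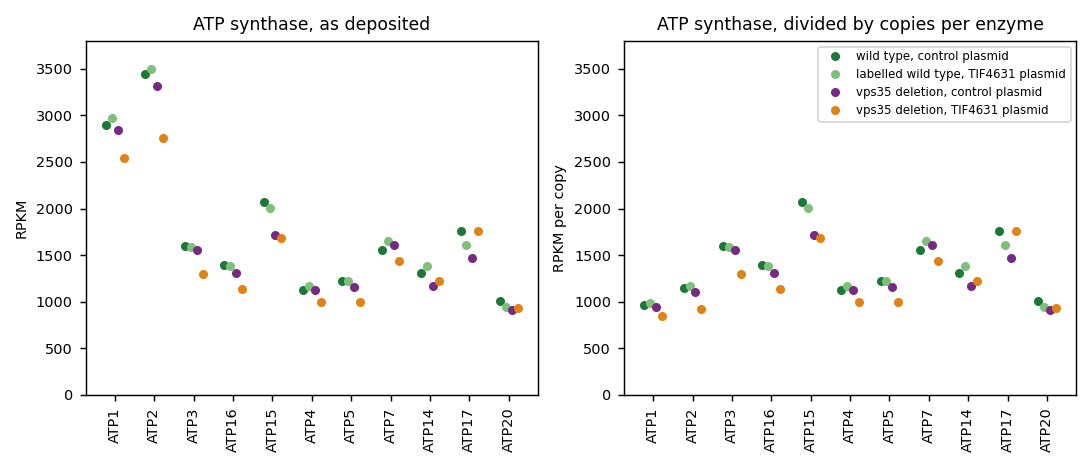
Density of the 11 nuclear ATP synthase genes, as deposited (left, RPKM) and divided by the copies of each subunit per enzyme (right, 3 for ATP1 and ATP2 and 1 for the others), with 1 point per library. ATP1 and ATP2 stand at 2546 to 3500 RPKM on the left, above every other subunit, and at 849 to 1167 RPKM on the right.

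Differences between libraries were taken as log2 ratios of scaled counts. A gene was called lower or higher when its ratio was at least 1.5-fold, a log2 ratio of 0.585, with an interval that excluded 0. Members held far more counts than the median ORF, so their intervals are narrower, and shares beyond counting error cannot be set against those of all ORFs as like with like.

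With the control plasmid, the deletion library differed little from wild type for these genes. None of the 35 was called in either direction, against 1.34% of 4997 ORFs called lower and 1.12% called higher. At 2-fold 0.54% of ORFs were lower and 0.26% higher. The members' median log2 ratio was -0.10, against 0.00 over all ORFs to 2 decimals, and 26 were lower and 2 higher beyond counting error, against 17.3% and 17.2% of all ORFs. The medians by complex were -0.09 for complex II, -0.07 for III, -0.12 for IV and -0.10 for ATP synthase. The lowest member was COX7, at 382 scaled CPM in the wild-type control and 299 in the deletion control, a log2 ratio of -0.35 (interval -0.41 to -0.29). ATP15 at -0.29 and ATP17, a membrane subunit, at -0.27 followed. The highest was QCR6, an acidic subunit of complex III, at 0.17 (0.11 to 0.22). Spearman's rho of these ratios with coding length was 0.43 over the members and -0.02 over all ORFs, so the shorter members tended to stand lower.

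The mitochondrially encoded partners of the same complexes stood much lower in that library, from few counts. COX2 had 293, 395, 45 and 62 counts, COX3 had 250, 353, 44 and 43, ATP6 had 316, 312, 57 and 38, and OLI1, the subunit of the rotor ring, had 108, 157, 10 and 5. The 4 had log2 ratios of -2.76 to -1.83 in the deletion control, where no nuclear member was below -0.35. COX1 and COB were not analysed here, and whether cytosolic and mitochondrial ribosomes were recovered alike in each library was not tested.

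In the wild-type library labelled TIF4631 the members were slightly higher than in the wild-type control. None was called, against 0.48% of ORFs called lower and 1.82% higher. At 2-fold these shares were 0.1% and 0.46%. The median was 0.06, with 23 members higher and 5 lower beyond counting error, against 24% and 23.6% of all ORFs. Complex medians lay between 0.00 and 0.09. QCR6 was the highest, at 0.33 (0.28 to 0.38), and ATP17 the lowest, at -0.09 (-0.13 to -0.05). QCR6 was low in the wild-type control, at 348 scaled CPM against 436 in this library and 391 in the deletion control, and both comparisons in which it was the highest member share that control.

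The deletion library with raised TIF4631 differed from its own control by complex. Complex II had a median log2 ratio of -0.54, ATP synthase -0.17, complex IV -0.09 and complex III -0.07, against 0.01 over all ORFs. By summed counts complex II was lower by a log2 ratio of -0.50, ATP synthase -0.19, complex III -0.13 and complex IV -0.01. Of the 35 members, 2 were called lower, CYC1 and SDH1, and 0 higher, where 4.94% of all ORFs were called lower and 3.6% higher. At 2-fold 0 members were called, against 0.56% of ORFs lower and 1.06% higher. Beyond counting error 25 were lower and 5 higher, against 31.3% and 30.1% of all ORFs.

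CYC1 (YJR048W, chromosome X, 526335 to 526664, a single coding exon) encodes the main isoform of cytochrome c, which carries electrons from complex III to IV. It stood at 547, 572, 510 and 264 scaled CPM. The deletion library with TIF4631 stood apart and the first 3 lay close together. The log2 ratio of the deletion library with TIF4631 to its control was -0.95 (-1.01 to -0.89), a 1.93-fold lower level, which ranked 39 from the lowest of 4997 ORFs. Its density relative to cytochrome c1 (CYT1) was 2.38, 2.5 and 2.27 in the first 3 libraries and 1.23 in the fourth. The minor isoform CYC7 had 461, 501, 321 and 392 counts, or 26.2, 28.6, 28.2 and 23.5 scaled CPM. Its log2 ratio was -0.26 (-0.48 to -0.05) in the same comparison, and CYC1 held over 10 times its counts in each library.

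Complex II oxidises succinate with SDH1 and SDH2 and is anchored by SDH3 and SDH4. SDH1 (YKL148C, chromosome XI, 169207 to 171129), the flavoprotein, stood at 1290, 1345, 1226 and 806 scaled CPM, and its log2 ratio was -0.61 (-0.64 to -0.57). SDH2 (YLL041C, chromosome XII, 53131 to 53931), the iron-sulphur subunit, stood at 803, 874, 746 and 506, with a log2 ratio of -0.56 (-0.60 to -0.52). Each was lowest in the deletion library with TIF4631, with the other 3 libraries close together. SDH4 (YDR178W, chromosome IV, 817950 to 818495) stood at 587, 618, 564 and 391, with -0.53 (-0.58 to -0.48). SDH3 (YKL141W, chromosome XI, 179667 to 180263) stood at 707, 687, 614 and 521, with -0.24 (-0.28 to -0.19), the smallest difference of the 4. The density of SDH1 relative to SDH2 stayed between 0.634 and 0.677, whereas that of SDH3 relative to SDH4 was 1.22 in this library and 0.993 to 1.1 in the others. Copies of these genes elsewhere in the genome held few counts: SHH3 had 6 to 21, SHH4 had 35 to 81 and YJL045W had 34 to 49.

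NDI1 (YML120C, chromosome XIII, 28266 to 29807), which stood at 613, 656, 535 and 396 scaled CPM, had a log2 ratio of -0.43 (-0.48 to -0.38). Its homologue NDE1, which takes electrons from cytosolic NADH, stood at 1319, 1191, 1348 and 1347, at a ratio of 0.00 to 2 decimals (-0.03 to 0.03). NDE2, the minor external enzyme, stood at 11.8, 18.2, 15.6 and 23.9, with 0.62 (0.36 to 0.88). NDE2 rested on 207, 319, 177 and 399 counts. In the wild-type library labelled TIF4631 against the wild-type control it had 0.63 (0.37 to 0.89), where NDI1 had 0.10 (0.06 to 0.14). NDI1 and NDE2 thus did not run in opposite directions in both strains. INH1 stood at 247, 270, 251 and 209 scaled CPM, with -0.27 (-0.34 to -0.19), close to the -0.28 of ATP2, and its homologue STF1 had -0.05 (-0.14 to 0.04).

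Complex IV and ATP synthase held members on both sides of their control, while most of complex III lay near it. In complex III QCR6 (YFR033C, chromosome VI, 224326 to 224769) was the lowest, at 348, 436, 391 and 283 scaled CPM and a log2 ratio of -0.46 (-0.52 to -0.40). QCR2 followed at -0.30 and QCR9 at -0.21, while COR1, CYT1, the Rieske protein RIP1, QCR7, QCR8 and QCR10 lay between -0.07 and 0.03. QCR10 was the highest, at 344, 330, 317 and 323 scaled CPM. QCR9 and QCR10 are the members with an intron. No member overlapped another gene of the RefSeq annotation.

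In complex IV, COX7 (YMR256C, chromosome XIII, 778945 to 779127) was the highest member of all, at 382, 370, 299 and 405 scaled CPM and a log2 ratio of 0.44 (0.38 to 0.50). The deletion control was the low library for COX7. It enters this comparison and that of the strains with the control plasmid, so the 2 ratios are not independent. COX4 followed at 0.25 (0.20 to 0.30) from 549, 580, 498 and 593 scaled CPM, and COX8 at 0.10. COX5A was the lowest, at 459, 476, 451 and 346 scaled CPM and -0.38 (-0.43 to -0.33), with COX9 at -0.35 (-0.42 to -0.28). COX5B, the isoform of COX5A known for its use under low oxygen, stood at 32.6, 41.1, 24.9 and 35.1 scaled CPM, with 0.49 (0.29 to 0.70). The deletion control was low for COX5B, at -0.39 (-0.60 to -0.18) against the wild-type control. Against the wild-type library labelled TIF4631 the deletion library with TIF4631 was lower for both isoforms, at -0.23 (-0.39 to -0.07) for COX5B and -0.46 for COX5A.

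In ATP synthase the 3 largest subunits were lower together, ATP2 at -0.28, ATP3 at -0.27 and ATP1 at -0.17, as were the stator subunits ATP5 at -0.23, ATP4 at -0.19 and ATP7 at -0.17 and the delta subunit ATP16 at -0.22. ATP17 (YDR377W, chromosome IV, 1228611 to 1228916) was the highest, at 512, 481, 424 and 502 scaled CPM and 0.24 (0.19 to 0.30). ATP14, ATP20 and ATP15 lay between -0.05 and 0.05. Like COX7, ATP17 was lowest in the deletion control. Spearman's rho of the ratio with coding length was -0.42 over the 35 members, against 0.03 over 4996 ORFs, and COX9, the shortest coding sequence at 180 nt, was lower. The deletion control is the denominator here and the numerator in the strain comparison with the control plasmid, where rho was 0.43, so the 2 rho values are not independent. The part of coding length in the ratios was not tested.

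**Figure D3:**
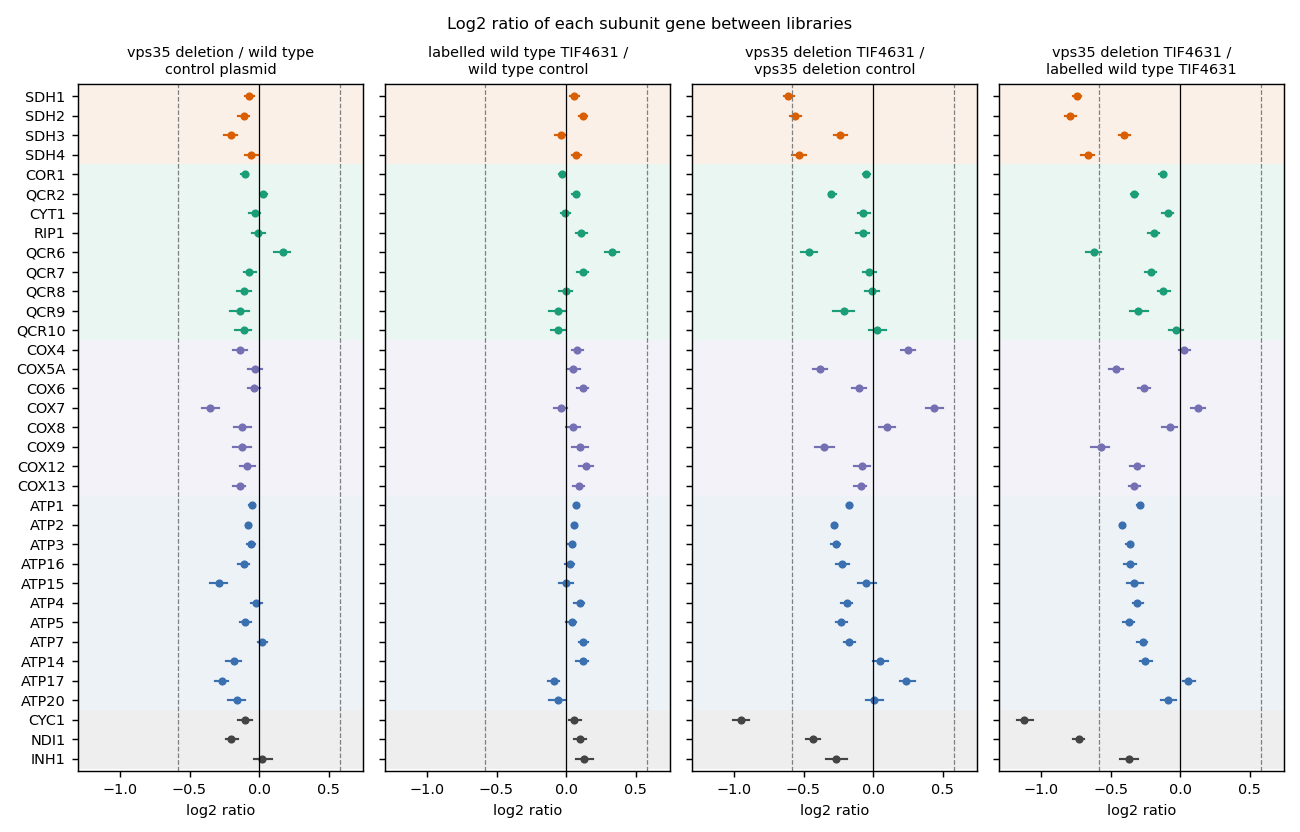
Log2 ratio of each gene in 4 comparisons of libraries, with bars for the 95% counting interval, shading by complex and dashed lines at 1.5-fold. The first 2 panels stay inside the dashed lines, and in the last 2 CYC1 lies farthest to the left, followed by SDH1 and SDH2.

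The same deletion library was also lower for most members than the wild-type library labelled TIF4631, and the 2 comparisons share it. Here 6 were called lower, CYC1, SDH2, SDH1, NDI1, SDH4 and QCR6, and 0 higher, against 7.9% and 6.38% of all ORFs. At 2-fold CYC1 alone was called, against 2.4% of ORFs lower and 1.58% higher. The values were -1.12 (-1.17 to -1.06) for CYC1, -0.79 for SDH2, -0.74 for SDH1, -0.73 for NDI1, -0.66 for SDH4 and -0.62 for QCR6. The median member stood at -0.31 and that of all ORFs at 0.00 to 2 decimals, with 31 members lower and 2 higher beyond counting error, against 35.3% and 33.8%. COX7 at 0.13 and ATP17 at 0.06 were the 2 above 0 beyond counting error. This pair of libraries differs in VPS35 and in TIF4631 level at once, so the effects of the strain and of TIF4631 cannot be told apart in it.

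The difference between the plasmid ratios of the 2 strains, the interaction, has on its wild-type side a library without raised TIF4631. By that measure 5 members were past 1.5-fold, all lower, against 7.66% of ORFs lower and 6.92% higher, and the median was -0.22. Beyond counting error 25 were lower and 4 higher, against 31.5% and 27.6%. At 2-fold 1 member was called, CYC1, against 1.78% of ORFs lower and 1.58% higher. The 5 were CYC1 at -1.01, QCR6 at -0.79, SDH2 at -0.68, SDH1 at -0.67 and SDH4 at -0.60.

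The only fit with a residual degree of freedom was an additive edgeR model of strain and plasmid label over the 4 libraries (quasi-likelihood F test, p-values adjusted by the Benjamini-Hochberg method over 4997 ORFs). For strain 0 of 35 members passed an adjusted p of 0.05, where 30 ORFs (0.6%) passed. Unadjusted p was under 0.05 for 2, CYC1 and NDI1. The coefficient of CYC1 was -0.61 on the log2 scale with an SE of 0.240 and adjusted p of 0.623. That of NDI1 was -0.46 with an SE of 0.189 and adjusted p of 0.651. Both were lower in each deletion library, but unequally. The strain ratios under the control plasmid and the TIF4631 label were -0.10 and -1.12 for CYC1 and -0.20 and -0.73 for NDI1. Most of each coefficient thus came from the deletion library with raised TIF4631. For the plasmid label 0 members passed, 0 had an unadjusted p under 0.05, and 0 of all ORFs (0%) passed by edgeR. The label term joins a pair of libraries in which TIF4631 was not raised (log2 ratio -0.17) with a pair in which it was (3.84). TIF4631 itself did not pass, so this term cannot show what raised TIF4631 does. DESeq2 and limma also called 0 members for either term. The model has 1 residual degree of freedom, and a p that misses the threshold does not show that the members are alike in the libraries.

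Among the lists of other genes that serve the chain, most had medians below 0 in the deletion library with TIF4631 against its control. They were those of assembly, translational activation, the tricarboxylic acid cycle, carriers, haem synthesis and the HAP regulators. The lists of ubiquinone synthesis and other electron donors had medians near 0. Assembly factors had median log2 ratios of -0.43 for complex II (4 genes), -0.40 for complex III (6 genes), -0.41 for complex IV (24 genes) and -0.38 for ATP synthase (9 genes), against medians of -0.54, -0.07, -0.09 and -0.17 for the subunits. Of the 24 complex IV factors 21 were lower and 2 higher beyond counting error, against 31.3% and 30.1% of all ORFs. Of these 24, 4 were called lower and 0 higher, against 4.94% and 3.6% of all ORFs, and the same shares apply to the counts of called genes in the lists below. PET117 had 160, 236, 154 and 91 counts, a log2 ratio of -1.31 (-1.70 to -0.93), and COX17, the copper chaperone, had 977, 1138, 660 and 509, a ratio of -0.93 (-1.10 to -0.76). PET117 stood at 9.08, 13.5, 13.5 and 5.45 scaled CPM and COX17 at 55.5, 64.9, 58 and 30.5, each lowest in the deletion library with TIF4631. For PET117 the deletion control was above the wild-type control, at a log2 ratio of 0.57 (0.25 to 0.90). It was level with the wild-type library labelled TIF4631.

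Among the other subunits and regulators, 3 of 10 were called lower in that comparison and 0 higher, against 4.94% and 3.6% of all ORFs. STF2, a factor that stabilises the bound inhibitor, stood at 165, 259, 169 and 224 scaled CPM, with 0.41 (0.33 to 0.49). COX26, a small complex IV subunit, had 1754, 3507, 705 and 580 counts, or 99.6, 200, 62 and 34.8 scaled CPM, with a ratio of -0.83. Its range was the widest among these genes, and it was highest in the wild-type library labelled TIF4631. The supercomplex factor RCF1 stood at -0.79 (-0.98 to -0.61) and TIM11, a dimer subunit of ATP synthase, at -0.63 (-0.71 to -0.56). ATP18 and ATP19, other small ATP synthase subunits, stood at -0.11 and -0.17.

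The tricarboxylic acid cycle list, which shares succinate dehydrogenase as a neighbouring step, had a median of -0.45, with 11 of 11 genes lower beyond counting error and 1 called lower, CIT1, the citrate synthase, at -0.64. Translational activators of mitochondrial mRNAs had a median of -0.40, with 1 of 11 called lower, a single gene beside the 4.94% of all ORFs. Carriers and import genes stood at -0.35, with 1 of 11 called lower, AAC1, a minor ADP/ATP carrier that stood at 1.03 in the deletion control against wild type. Ubiquinone synthesis had a median of -0.08, with 0 of 11 called and 3 lower and 4 higher beyond counting error. The 5 other electron donors had a median of 0.00 to 2 decimals, with NDE2 called higher. Haem synthesis, which supplies cytochromes, had a median of -0.29, with 2 of 8 called lower, HEM3 at -0.78 and HEM1, the first enzyme of the pathway, at -0.60. Among the HAP regulators the activator subunit HAP4 stood at 386, 363, 341 and 298 scaled CPM and -0.20 (-0.26 to -0.14), and HAP1, a haem-responsive activator of CYC1, at 240, 244, 230 and 312 and 0.44 (0.37 to 0.50). HAP2, HAP3 and HAP5 stood at -0.28, -0.57 and -0.42. Over the 5 regulators the median was -0.28, with 0 called. Beyond counting error 4 were lower and 1, HAP1, was higher, against 31.3% and 30.1% of all ORFs. Any link of these regulators to CYC1 or the other members was not tested.

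**Figure D4:**
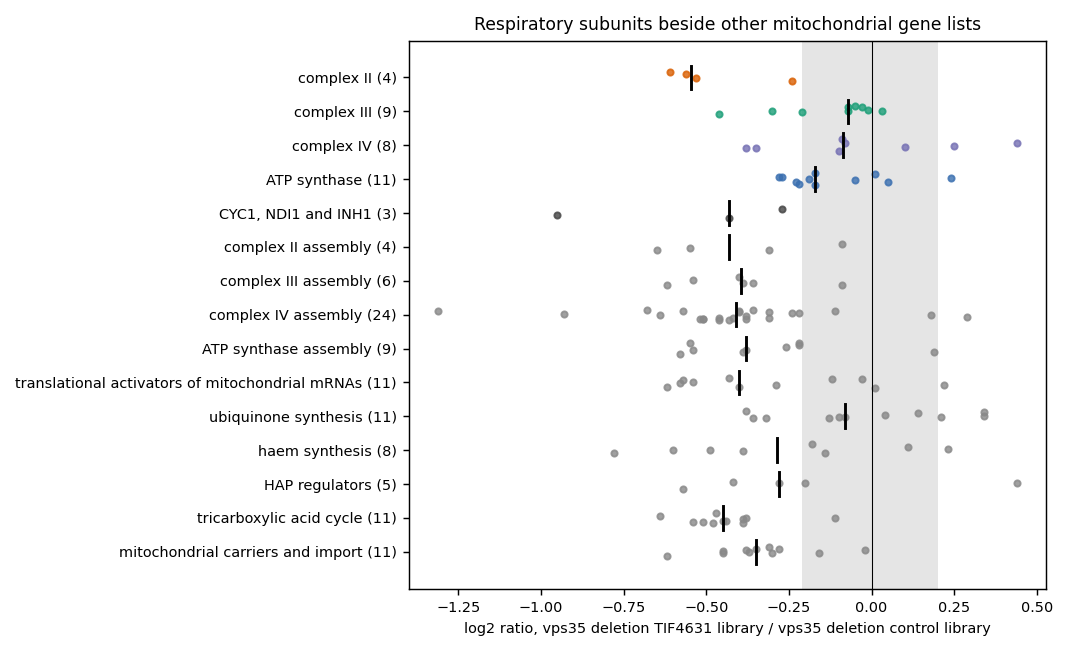
Log2 ratio of the deletion library with TIF4631 to the deletion control for each gene (points) of the respiratory complexes and of other mitochondrial lists, with black bars at medians, the number of genes in brackets and grey shading for the middle part of all ORFs, from -0.21 to 0.20. Complex III, complex IV, ATP synthase and ubiquinone synthesis have medians inside the shading. The medians of all other rows shown lie to its left, with haem synthesis (-0.29) and the HAP regulators (-0.28) nearest to it.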

How the data were processed

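Ribosome-protected fragments were measured in 4 libraries. Each deposited table gives raw read counts for every ORF. It also gives RPKM, which the authors scaled to ORF length and dataset reads, per the file headers. The RPKM length was the annotated coding length minus 15 nt for all 35 members. CASAVA, cutadapt 1.3, Bowtie2 and sacCer3 are named per the submitters' processing notes. How reads were counted, whether by strand, and what was done with multiply matching reads is not given in the sources used here.

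The low-count filter kept ORFs whose 4 counts summed to 200 or more (4997 of 5441). Counts were scaled by the TMM method of edgeR 4.0.16 (factors 0.997, 0.971, 1.01 and 1.02), and log2 ratios used 0.5 added counts with 95% conditional binomial (Clopper-Pearson) intervals, or for the interaction a normal approximation on log counts. Amplified reads carry no molecular identifier here, so intervals cover counting error only. Every pair of libraries differed beyond sampling noise, with chi-square over degrees of freedom of 19.1 to 237. The additive model used edgeR with DESeq2 1.42.0 and limma 3.58.1 as alternatives, in R 4.3.3, with scipy 1.17.1 under Python 3.11.15. The intervals and the model were tested on simulated data. Promoter windows, from 250 bases before to 50 after the start codon, were cut from the R64 genome. All 35 members matched the R64 annotation by locus tag and symbol.

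The members and lists were chosen with earlier results of these data known. The rule for named genes gives values in every library for members past 1.5-fold in any comparison, for the highest and lowest of each complex by ratio or RPKM, and for CYC1, NDI1 and INH1, and names list genes past 2-fold and close homologues of members. Other genes were named after their values were seen.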

Additional observations from a re-analysis of the deposited data

Results flagged for a closer look

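With TMM scaling, the plasmid ratio of 5 members had opposite signs in the 2 strains, each beyond counting error, with a difference of at least 1.5-fold. The difference was not tested, since each group is 1 library. The differences (deletion minus wild type) were -0.67 for SDH1 (0.06 in wild type, -0.61 in the deletion), -0.68 for SDH2 (0.12 and -0.56), -0.60 for SDH4 (0.07 and -0.53), -0.79 for QCR6 (0.33 and -0.46) and -1.01 for CYC1 (0.06 and -0.95). For QCR6 the strain ratios, 0.17 for the control and -0.62 for the TIF4631 label, had opposite signs too. Their difference is the same -0.79 by construction, since it is taken over the same 4 libraries, and is no second observation. The wild-type side of each rests on the library in which TIF4631 was not raised. Scaling by total counts shifted that wild-type comparison by -0.04. The lower interval limits there were 0.03 for SDH1, 0.02 for CYC1 and 0.04 for SDH4. Whether these genes were higher beyond counting error in wild type thus depends on the scaling. For SDH2 and QCR6 the lower limits, 0.09 and 0.28, were larger than the size of that shift. With total counts 4 members were past 1.5-fold for the difference.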

How the results depend on the processing

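No paired analysis was possible because each group has 1 library. Of 108 alternative values, 84 stayed within the limits set for them and 24 moved. Scaling by total counts, by DESeq2 size factors or without the 50 most abundant ORFs, no filter, a filter of 1000 counts and 5 added counts each left the number of members called within 1.5 times in every comparison, and the median member moved in one case, from -0.31 to -0.24 with total counts, in the comparison with the wild-type library labelled TIF4631. The fold sets the calls: at the looser threshold, a log2 ratio of 0.32, 1 member was called for the deletion with the control plasmid (COX7), 1 for the wild-type library labelled TIF4631 (QCR6), 9 for TIF4631 in the deletion (8 lower and 1 higher, against 16.3% and 13.8% of all ORFs), 17 for the deletion under the TIF4631 label (17 lower and 0 higher, against 19.4% and 17%) and 13 for the interaction (11 lower and 2 higher, against 19.4% and 17.4%). For the first 2 comparisons the shares of all ORFs were 4.1% lower and 3.92% higher, and 5.36% and 7.04%. At 2-fold there were 0 for TIF4631 in the deletion and 1 in each of the last 2. Over all ORFs the strain term of the additive model called 30 (10 higher and 20 lower), or 83 (42 and 41) with total counts, 47 (19 and 28) with DESeq2 size factors, 52 (23 and 29) without the 50 most abundant ORFs, 94 (42 and 52) with no filter and 66 (30 and 36) by DESeq2. The plasmid term called 0, or 2 under each other scaling and with the strict filter, 4 with no filter and 6 by DESeq2, which left 2325 adjusted p-values as not given. No alternative fit of this model called a member. The ratio of highest to lowest density changed from 2.47 to 2.38 in complex III, 2.21 to 2.1 in complex IV and 2.14 to 1.99 in ATP synthase with the whole coding length, and to 3.41 in ATP synthase with no correction for copies. Depth limits the mitochondrial ORFs, which rest on as few as 5 counts, more than the members.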
